A study of Mus musculus with 26 samples.

Results

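The 9 genes described here encode enzymes that make deoxynucleotides, the building blocks of DNA, or that keep their pools in balance. They are Rrm1, Rrm2, Rrm2b and Tyms of synthesis, Dck and Tk1 of salvage, and Dut, Dctpp1 and Samhd1, which break nucleotides down. They were chosen by symbol out of 25814 genes in each table, and all 9 were found in all 26 libraries. The choice was made with earlier results of both comparisons in view, so the levels below are descriptions, and the calls on these 9 genes support nothing beyond the values themselves.

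The libraries measure messenger RNA of flow-sorted T cells from the Peyer's patches, lymphoid follicles of the gut wall, in C57Bl/6 mice. A first pair of groups holds CD4+ T cells of animals on the conventional diet (n = 6), and on an elemental diet (n = 6), in which amino acids take the place of whole protein. The other pair holds CD44+ (n = 7) and CD44- (n = 7) T cells, all from conventionally fed animals, CD44 being a surface receptor raised on T cells that have met antigen. No transgene, deletion or drug is named for any group, and the sources used here give neither age nor time on the diet. Libraries of the diet pair were made from 22 ng of RNA and those of the CD44 pair from 1 ng with another kit. Population and kit therefore cannot be told apart. The pairs were scaled separately and not tested against each other, and values given side by side are descriptions. Nothing in the labels says that replicates were separate animals, so p-values measure only the spread between these samples, which may be technical.

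Ribonucleotide reductase turns ribonucleotides into deoxyribonucleotides and is built from the large subunit Rrm1 with a small subunit, either Rrm2, which is made in S phase, or Rrm2b, which the p53 pathway induces and which serves cells that are not dividing. Thymidylate synthase (Tyms) makes dTMP from dUMP. The salvage kinases recycle nucleosides: Dck phosphorylates deoxycytidine, deoxyadenosine and deoxyguanosine, and Tk1 phosphorylates thymidine. Dut removes dUTP, Dctpp1 removes dCTP and its modified forms, and Samhd1 cleaves deoxynucleoside triphosphates and is known for starving viruses of them in resting cells. In lymphocytes, salvage and reductase together feed DNA synthesis, and loss of Dck is known to impair T and B cell development.

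Coordinates are those of the deposited tables (GRCm38). Dck (ENSMUSG00000029366) lies on chromosome 5 from 88764996 to 88783281, plus strand. Tyms (ENSMUSG00000025747) lies on the same chromosome from 30058202 to 30073617, minus strand. Rrm1 (ENSMUSG00000030978) lies on chromosome 7 from 102441695 to 102469771, plus strand, and Dctpp1 (ENSMUSG00000042462) on chromosome 7 from 127256959 to 127260709, minus strand. Rrm2 (ENSMUSG00000020649) lies on chromosome 12 from 24708241 to 24714146, plus strand, and Rrm2b (ENSMUSG00000022292) on chromosome 15 from 37923952 to 37961318, minus strand. Tk1 (ENSMUSG00000025574) lies on chromosome 11 from 117815526 to 117826092, minus strand. Dut (ENSMUSG00000027203) and Samhd1 (ENSMUSG00000027639) lie on chromosome 2, from 125247190 to 125258608 on the plus strand and from 157097533 to 157135265 on the minus strand. All values count reads over the annotated exons, UTRs included.

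The promoters of Rrm1, Rrm2 and Dck are shown because these were the 3 genes whose levels did not overlap between the diets. The sequences are from RefSeq (GRCm38.p6), from 120 to 21 bases before the annotated start, plus strand. Capitals mark CCAAT, the word bound by NF-Y, and GGGCGG, the GC box bound by Sp1, in either orientation.
Rrm1, chr7:102441575-102441674: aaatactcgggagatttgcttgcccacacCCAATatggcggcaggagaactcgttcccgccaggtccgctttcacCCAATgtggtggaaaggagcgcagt
Rrm2, chr12:24708134-24708233: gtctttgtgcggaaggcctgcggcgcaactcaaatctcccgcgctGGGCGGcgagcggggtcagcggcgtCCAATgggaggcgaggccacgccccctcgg
Dck, chr5:88764893-88764992: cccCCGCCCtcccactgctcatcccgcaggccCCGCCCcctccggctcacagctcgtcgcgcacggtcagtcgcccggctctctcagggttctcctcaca
The stretches differ in the words they hold: Rrm1 has CCAAT and no GGGCGG, Dck has GGGCGG and no CCAAT, and Rrm2 has both. Over the full windows, from 250 bases before to 50 after the start, 8 of the 9 genes were matched by symbol, all but Rrm2b. The start is that of RefSeq, which can differ from the bounds in the deposited tables. The Dut window (125247265 to 125247564) lies wholly inside the deposited gene, and the Samhd1 window (157135047 to 157135346) mostly so. CCAAT was found on either strand in 3 of these 8 (Rrm1, Rrm2 and Dctpp1) and in 37.4% of all 32851 promoter windows of that length. GGGCGG was found in 7 of 8, all but Rrm1, with 6 copies in the Dck window, against 35.7% of all windows. The word TTTGAA, the CHR element of late cell cycle genes, was found in the Dck window only, against 17.9% of all windows. No match in these 8 windows overlapped another. None of 4 words of the E2F site (TTTCCCGC, TTTGGCGC, TTTCGCGC, TTTGCCGC) was found in the 8 windows, and 2.26% of all windows held one. A match describes letters and not binding, and a missing word says only that those letters are not in this window.

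Depth was 16401589 to 25415205 exon reads in the diet pair and 7180390 to 13378353 in the CD44 pair. Introns took 3.33% to 4.61% of gene reads in the diet pair and 9.40% to 29.0% in the CD44 pair. No 2 libraries of a group agreed within sampling noise. Summed T cell markers stood at 3676 to 4576 CPM (reads relative to the scaled library size) over the diet pair and at 9563 to 15928 CPM over the CD44 pair, with Cd4 at 99 to 8664 reads and Cd8a at 0 to 728 reads per library in the latter. Conventional replicate 6 stood apart in the count of genes that differed between the diets, which was 2081 with it and 3865 without it. It was the highest conventional library for Rrm2, Tyms, Dut and Dctpp1 and the lowest for Rrm2b and Samhd1.

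Under the elemental diet the CD4+ libraries held less RNA of the reductase subunits Rrm1 and Rrm2, of Tyms, and of the salvage kinases Dck and Tk1. Rrm2 was 2.70-fold lower and Dck 1.77-fold lower, while the nucleotide-degrading genes Dut, Dctpp1 and Samhd1 and the small subunit Rrm2b were not called. By edgeR's quasi-likelihood test, with Benjamini-Hochberg adjusted p under 0.05 over all genes, 5 of the 9 were called lower and 0 higher, beside 7.75% of all 11938 tested genes called lower, 9.68% called higher and 17.4% called in either direction. At an unadjusted p under 0.05 there were 6 of 9, Dut being the addition. The p-value of Dut ranked 3394 among the 11938 genes, so at least that many genes were under this unadjusted threshold. The log2 fold changes of the 9 were all negative with a median of -0.67, beside -0.01 over all genes. The rule used this contrast, so these counts are given as a description. In sorted bulk RNA, fewer cells of a type and less RNA per cell cannot be told apart.

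**Figure D1:**
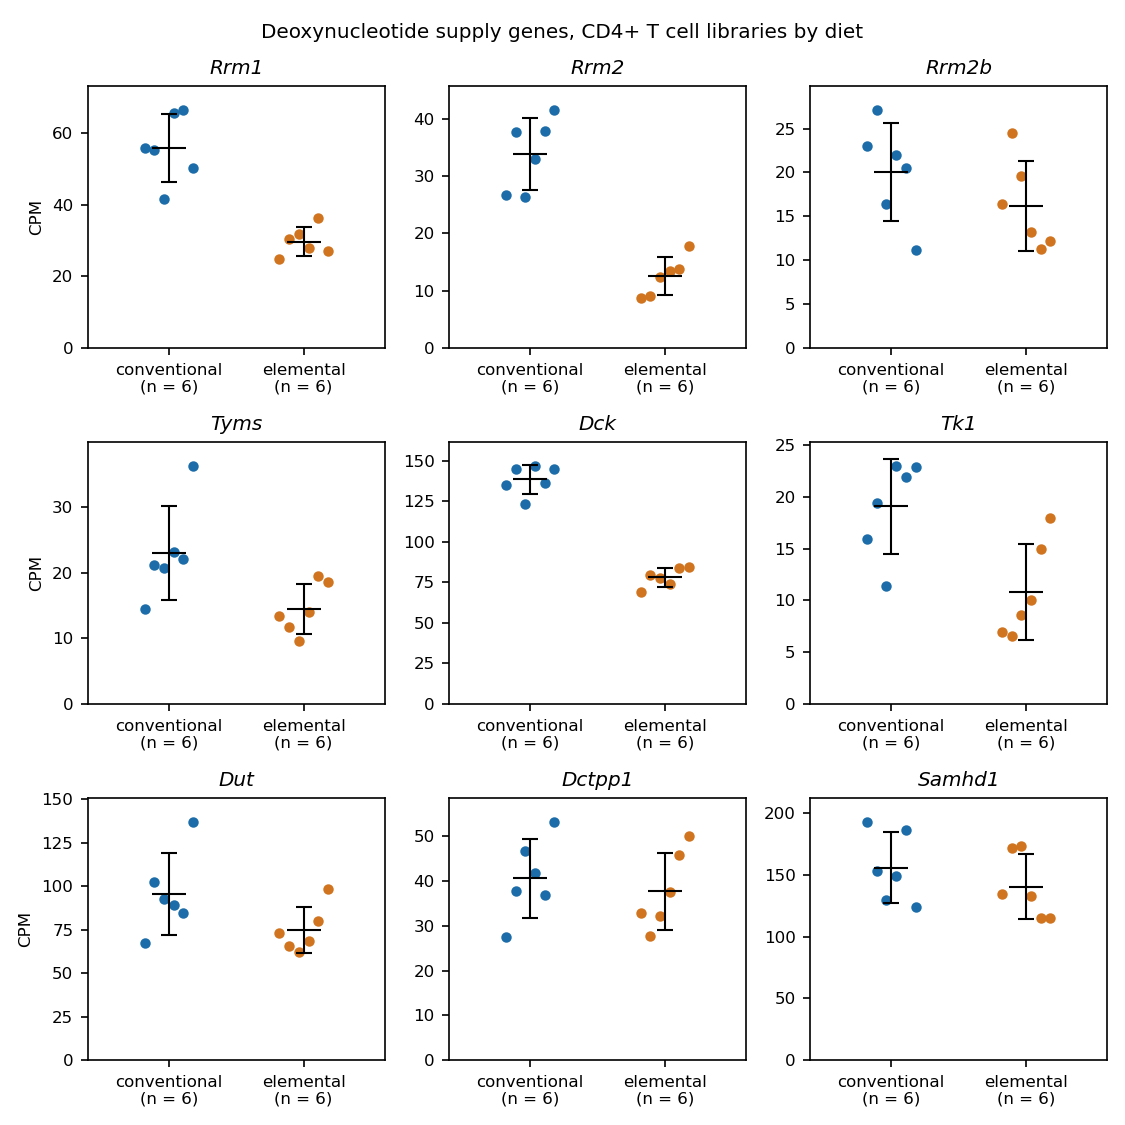
Level of each gene in the 12 CD4+ T cell libraries, in CPM on a linear axis from 0, by diet. Each point is a library and the bar is the group mean with its SD (n = 6). Dck, Rrm1 and Rrm2 show no overlap between the diets, and Samhd1 and Dctpp1 overlap over most of their range.

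Dck was the member with the tightest replicates. Its level in conventional libraries 1 to 6 was 135, 145, 123, 147, 136 and 145 CPM. In elemental libraries 1 to 6 it was 68.9, 79.6, 77.9, 74.2, 83.7 and 84.3 CPM. The lowest conventional library thus lay above the highest elemental one, and the highest library of each group was only 1.19 and 1.22 times its lowest. The means were 138 ± 8.91 and 78.1 ± 5.87 CPM (SD, n = 6 each), a log2 fold change of -0.83 ± 0.08 (SE), from 1998 to 3965 and from 1351 to 1650 reads per library. Its p-value ranked 5 among 11938 genes, while its fold change ranked 726 from the most negative.

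Rrm1, the catalytic subunit, was at 55.8, 55.2, 41.7, 65.5, 66.5 and 50.2 CPM in conventional libraries 1 to 6. It was at 24.8, 30.4, 31.8, 28.0, 36.4 and 27.0 CPM in elemental libraries 1 to 6. Every elemental library was below every conventional one. The means of 55.8 ± 9.38 and 29.7 ± 4.08 CPM gave a log2 fold change of -0.91 ± 0.12. Gm45399, a gene model of the annotation's TEC class, overlaps Rrm1 on the same strand, and reads shared by both could have been assigned to either.

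Rrm2, the S-phase small subunit, had the largest change of the 9. It was at 26.7, 37.7, 26.3, 33.0, 37.9 and 41.5 CPM in conventional libraries 1 to 6. It was at 8.77, 9.11, 12.3, 13.4, 13.8 and 17.7 CPM in elemental libraries 1 to 6. The groups did not overlap, and the highest library of each was replicate 6. The means were 33.9 ± 6.30 and 12.5 ± 3.34 CPM, a log2 fold change of -1.44 ± 0.18. Of all 11938 genes, 2.35% were lower on the elemental diet with no overlap between the groups (7.16% in either direction), and Dck, Rrm1 and Rrm2 were the 3 of the 9 that met this.

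Rrm2b, the small subunit of non-dividing cells, ran from 11.2 to 27.1 CPM in conventional libraries (median 21.3) and from 11.3 to 24.4 CPM in elemental libraries (median 14.8). The ranges almost coincide, and replicate 2 was the highest library in both groups. The log2 fold change was -0.31 ± 0.22 and was not called. Since Rrm2 and Rrm2b take the same place in the enzyme, their levels per exon length (RPKM, recomputed from the counts) were set against each other within each library. The Rrm2b to Rrm2 ratio had a median of 0.304 (0.127 to 0.406) on the conventional diet and 0.606 (0.322 to 1.26) on the elemental diet, with some overlap. The Rrm2 to Rrm1 ratio had a median of 1.03 (0.819 to 1.42) and 0.657 (0.513 to 1.13), also with overlap.

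Tyms ran from 14.5 to 36.2 CPM in conventional libraries (median 21.6) and from 9.62 to 19.4 CPM in elemental libraries (median 13.7). Conventional replicate 6 was the highest by a wide margin, and conventional replicate 1 lay inside the elemental range. The log2 fold change was -0.67 ± 0.21. Tk1 ran from 11.4 to 23.0 CPM (median 20.7) and from 6.54 to 18.0 CPM (median 9.33), a log2 fold change of -0.82 ± 0.25. Conventional replicates 1 and 3 and elemental replicates 5 and 6 made up the overlap. Tk1 is uncertain in a further way: 74.2% of its conventional and 73.3% of its elemental exon reads matched several places in the genome, against at most 0.44% for any of the other 8 genes pooled over either group of the diet pair, and it overlaps Afmid and Gm20708 on the opposite strand, with the strandedness of the counting not stated. With uniquely matched exon reads only, its log2 fold change was -0.78 and was not called (edgeR adjusted p = 0.0697). Both Tyms and Tk1 lost their calls when any 1 of 7 libraries was left out (conventional replicates 2, 4 and 5, elemental replicates 1, 2, 3 and 4), with adjusted p of 0.0595 to 0.0802 and 3 of the 9 genes then called, while Dck, Rrm1 and Rrm2 were called in every alternative run.

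The enzymes that remove nucleotides had smaller differences. Dut, which keeps uracil out of DNA, ran from 67.5 to 137 CPM in conventional libraries (median 91.0) and from 62.1 to 98.3 CPM in elemental libraries (median 70.8), a log2 fold change of -0.36 ± 0.15. Dctpp1 ran from 27.6 to 53.3 CPM (median 39.8) and from 27.8 to 50.1 CPM (median 35.2), a log2 fold change of -0.11 ± 0.16. Replicate 6 was the highest library of both genes in both groups, and the ranges overlapped widely. Samhd1 ran from 124 to 193 CPM (median 151) and from 115 to 173 CPM (median 134), a log2 fold change of -0.15 ± 0.13. Here replicate 6 was the lowest library in both groups. None of these 3 was called, which does not show that they were equal. Samhd1 is set by itself against Rrm2 because it destroys what the reductase supplies. Per exon length, the Samhd1 to Rrm2 ratio had a median of 1.53 (0.965 to 2.34) and 3.88 (2.10 to 6.12), with some overlap. The nucleotide pools themselves were not measured.

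**Figure D2:**
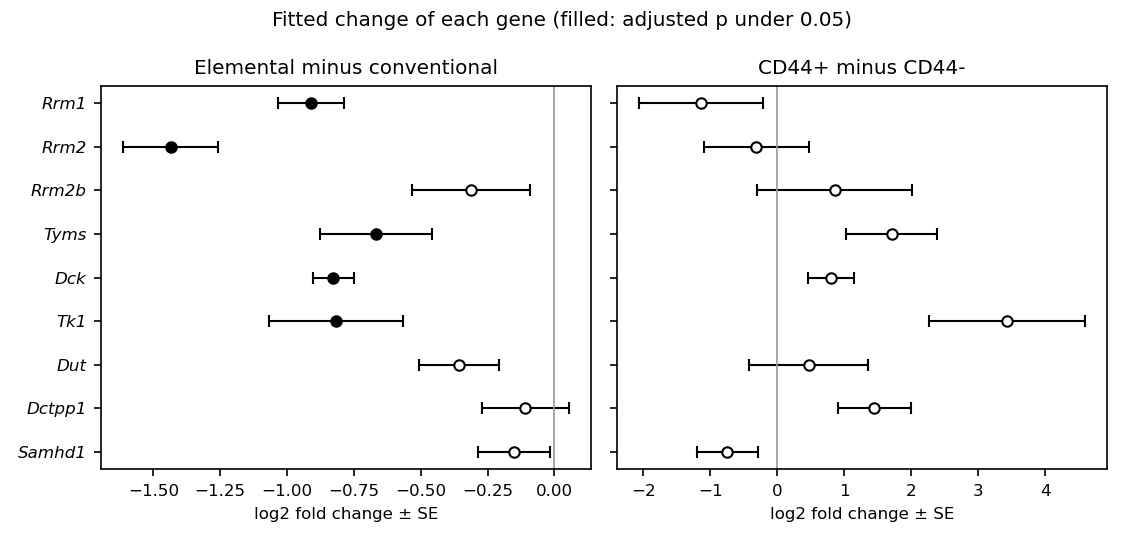
Log2 fold change of each gene with its SE, elemental minus conventional on the left and CD44+ minus CD44- on the right, with filled points for an edgeR adjusted p under 0.05. The left panel has 5 filled points, all below 0, and the right panel has none and much wider errors.

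Per exon length the 9 genes stood in the order Dctpp1, Dck, Dut, Samhd1, Rrm2, Rrm1, Tk1, Tyms and Rrm2b on the conventional diet. Dctpp1 was at 60.2 ± 13.0 RPKM, Dck at 45.0 ± 2.89, Dut at 44.2 ± 10.8 and Samhd1 at 21.2 ± 3.89 RPKM. Rrm2 (14.2 ± 2.65), Rrm1 (13.7 ± 2.30) and Tk1 (13.3 ± 3.20 RPKM) did not differ beyond their spread, and neither did Dck and Dut. Tyms followed at 5.86 ± 1.83 and Rrm2b at 3.97 ± 1.10 RPKM. On the elemental diet Dctpp1 (55.8 ± 12.8) was followed by Dut (34.5 ± 6.09), Dck (25.4 ± 1.91) and Samhd1 (19.1 ± 3.57 RPKM). Dck thus stood beside Dut on the conventional diet and 1 place below it on the elemental diet. Tk1 (7.54 ± 3.22), Rrm1 (7.29 ± 1.00), Rrm2 (5.27 ± 1.40), Tyms (3.68 ± 0.980) and Rrm2b (3.20 ± 1.01 RPKM) closed the order.

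The cytosolic salvage kinases were compared with their mitochondrial counterparts, which serve the copying of mitochondrial DNA. Dguok, which overlaps Dck in substrates, was at 60.7 ± 10.4 CPM on the conventional and 66.7 ± 6.37 CPM on the elemental diet and was not called (log2 fold change 0.14 ± 0.11, edgeR adjusted p = 0.379). The Dck to Dguok ratio per exon length ran from 1.16 to 1.73 in conventional libraries (median 1.57) and from 0.605 to 0.905 in elemental libraries (median 0.777). Every conventional library therefore held more Dck than Dguok per exon length, and every elemental library less. Tk2, the mitochondrial thymidine kinase, was not called either (0.14 ± 0.11, adjusted p = 0.388). The Tk1 to Tk2 ratio had a median of 0.703 (0.328 to 0.950) and 0.261 (0.209 to 0.615), with overlap.

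Further steps of the pathway were read from lists of genes chosen by function. Of 6 tested genes of the folate cycle that serves Tyms, 2 fell and 0 rose, with a list median of -0.34. Among them Mthfd1, a folate enzyme of the cytosol, fell from 22.2 ± 3.91 to 14.9 ± 2.93 CPM (log2 fold change -0.57 ± 0.16, edgeR adjusted p = 0.0209). Without conventional replicate 5 the Mthfd1 call was lost (0.0527). Shmt1, which supplies one-carbon units, was not called (-0.06 ± 0.14, adjusted p = 0.782). Among 9 kinases that carry nucleosides and nucleotides through their phosphorylation steps, 1 rose and 0 fell, with a median of 0.14. The riser was Cmpk2, a mitochondrial UMP-CMP kinase that interferon induces, from 11.7 ± 3.29 to 18.0 ± 4.16 CPM (0.63 ± 0.20, adjusted p = 0.0426). That call was lost with conventional replicate 2, 4 or 5 left out, or elemental replicate 1, 3, 4 or 6, with adjusted p of 0.0545 to 0.0991, and 3 of these kinases rose without conventional replicate 6. Of the folate genes, 3 fell without that library and 4 without elemental replicate 2. Dtymk, which phosphorylates the dTMP that Tyms and Tk1 make, was not called (-0.07 ± 0.14, adjusted p = 0.762).

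Of 8 genes that break deoxynucleosides and their monophosphates down, 2 rose and 0 fell, with a median of 0.27. Cda, which deaminates the Dck substrate deoxycytidine, rose from 2.60 ± 2.11 to 13.6 ± 5.15 CPM with no overlap (log2 fold change 2.41 ± 0.47, edgeR adjusted p = 0.0044). Upp1, a uridine phosphorylase, rose from 12.3 ± 6.07 to 25.7 ± 6.93 CPM (1.06 ± 0.27, adjusted p = 0.015). Dctd, which turns dCMP into the Tyms substrate dUMP, was not called (-0.21 ± 0.30, adjusted p = 0.653). Of 14 genes of de novo purine and pyrimidine synthesis 0 were called by edgeR, with 3 at an unadjusted p under 0.05, 1 lower by DESeq2, 0 by limma-voom and a median of -0.11. Likewise 0 of 4 nucleoside carriers were called by any of the 3 tools (0 unadjusted, median -0.13), among them Slc29a1 (-0.20 ± 0.11, adjusted p = 0.197). By edgeR 0 of 5 genes that clean damaged nucleotides and 0 of 4 thioredoxin and glutaredoxin genes that hand electrons to the reductase were called, each list with 2 at an unadjusted p under 0.05. Of the former, DESeq2 and limma-voom each called 1 higher, and of the latter both called 0. At least 3394 of all 11938 tested genes were under the unadjusted threshold by edgeR. Without conventional replicate 6 edgeR called 2 de novo genes and 1 breakdown gene lower, and 3 breakdown genes, 1 nucleotide-cleaning gene and 2 electron donors higher. Without elemental replicate 5 it called 1 de novo gene higher, and without conventional replicate 3 or elemental replicate 2 it called 1 nucleotide-cleaning gene higher.

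Genes of DNA replication fell in the same libraries. Of 15 tested S-phase genes, 9 fell and 0 rose, with a median log2 fold change of -0.69, which was close to the -0.67 of the 9 deoxynucleotide genes. Mcm6, a helicase subunit, fell from 117 ± 11.2 to 62.8 ± 8.67 CPM (-0.90 ± 0.10, edgeR adjusted p = 8.22e-05). Pola1, the catalytic subunit of polymerase alpha, had a log2 fold change of -1.65 ± 0.36 (adjusted p = 0.00669) and the licensing factor Cdc6 one of -1.10 ± 0.29 (adjusted p = 0.0167). Pcna, the polymerase clamp, was not called (-0.16 ± 0.09, adjusted p = 0.212). Mean log2 CPM of the S-phase list ran from 4.93 to 5.18 over conventional and from 4.14 to 4.50 over elemental libraries. Dck ran from 6.95 to 7.20 and from 6.11 to 6.40 on the same scale, and Samhd1 from 6.95 to 7.59 and from 6.85 to 7.44. The part of cell division in the deoxynucleotide differences was not tested.

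**Figure D3:**
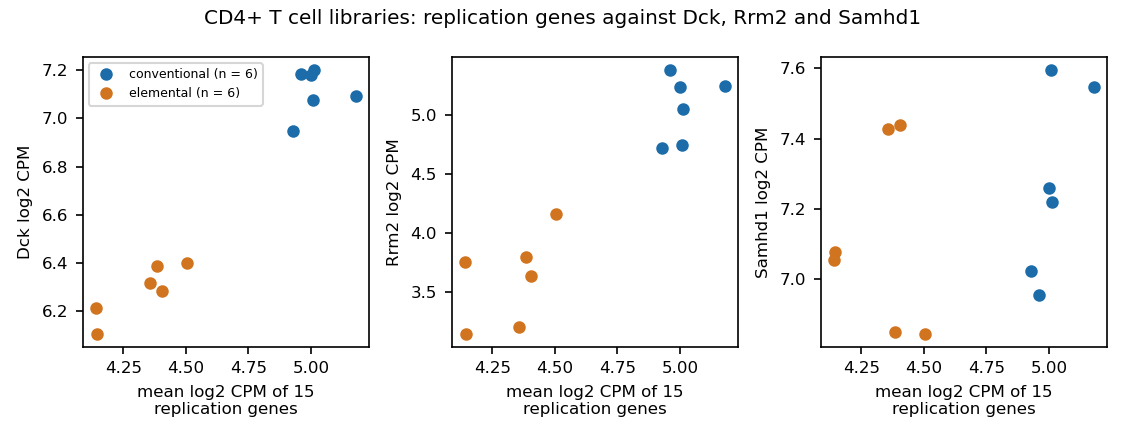
Log2 CPM of Dck, Rrm2 and Samhd1 (vertical axes) against the mean log2 CPM of 15 S-phase genes (horizontal axis), 1 point per CD4+ T cell library, coloured by diet. The diets form separate groups for Dck and Rrm2 and share their vertical range for Samhd1, and no correlation is given because the points fall into 2 groups.

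The genes that time entry into S phase were read as a list of their own. Of 9 tested genes of the G1 to S transition 3 fell and 0 rose, with a median of -0.43. They included Rb1, the retinoblastoma repressor of E2F (log2 fold change -0.64 ± 0.21, edgeR adjusted p = 0.0497), and its relative Rbl1 (-0.41 ± 0.12, adjusted p = 0.0352). E2f8, an E2F repressor, was the third, a low gene named after its value was seen. Their calls were lost when conventional replicate 1, 2, 4 or 5 or elemental replicate 1, 4, 5 or 6 was left out. Rb1 also lost its call without elemental replicate 3 and E2f8 without elemental replicate 2. The adjusted p then reached 0.109 for Rb1, 0.0782 for Rbl1 and 0.0949 for E2f8. DESeq2 and limma-voom each called 5 of the 9 lower. Of 11 p53 targets, the class to which Rrm2b belongs, 1 rose and 1 fell, with a median of -0.08. Sesn1, a stress-response gene, rose from 43.1 ± 3.08 to 60.4 ± 4.82 CPM (0.49 ± 0.08, adjusted p = 0.00128), and Trp53inp1 fell (-0.54 ± 0.12, adjusted p = 0.00772). Cdkn1a, which encodes the cell cycle inhibitor p21, was not called (0.32 ± 0.25, adjusted p = 0.390).

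Interferon is known to induce Samhd1 in several cell types, so that response was read beside it. Of 11 tested interferon response genes 5 rose and 0 fell, beside 9.68% of all 11938 tested genes called higher and 7.75% called lower. Without conventional replicate 6, 8 rose and 1 fell. The list had a median log2 fold change of 0.64, and Samhd1 one of -0.15. Ifit3 changed by 1.50 ± 0.32 (edgeR adjusted p = 0.00635), Usp18 by 1.07 ± 0.22 (adjusted p = 0.00501) and Bst2, which tethers virus particles, by 0.84 ± 0.14 (adjusted p = 0.00101). The part of interferon, or of other cells in the libraries, in these values and in Samhd1 was not tested.

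Markers of other cells moved with the diet in these libraries. Germinal centre B cell markers fell in 5 of 6 tested genes, and the sum of 7 ran from 106 to 201 CPM in conventional and from 48.1 to 73.2 CPM in elemental libraries. Plasma cell markers fell in 4 of 7, with sums of 929 to 1971 and 398 to 871 CPM, and B cell markers in 4 of 10, with sums of 369 to 697 and 221 to 490 CPM. Myeloid markers rose in 12 of 12, with sums of 465 to 651 and 943 to 1784 CPM, and epithelial markers in 4 of 10, with sums of 61.9 to 905 and 501 to 1375 CPM. T cell markers fell in 5 of 10, with sums of 4096 to 4576 and 3676 to 4135 CPM. None of these lists had a marker at 0 in all 12 libraries. Leaving out 1 library gave 0 (without conventional replicate 4) to 5 B cell markers lower, with 1 without conventional replicate 5 and 2 without conventional replicate 2 or elemental replicate 1, 4 or 5. It gave 3 to 6 T cell markers lower, the 3 being reached with any of conventional replicates 1 and 5 and elemental replicates 4 and 6 left out. All 10 epithelial markers were called higher without conventional replicate 6. DESeq2 and limma-voom called more of the epithelial markers, 9 of 10 each, and more of the B cell markers, 7 and 6 of 10. The part of these cells in the differences of Dck, Rrm1, Rrm2, Tyms, Tk1 and their partners was not tested.

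CD44+ and CD44- T cell libraries were compared next. None of the 9 genes was called, although Dck, Dctpp1, Tyms and Tk1 had higher means in CD44+ libraries and Samhd1 and Rrm1 lower ones. By edgeR 0 of the 9 were called, beside 0.767% of 8343 tested genes called at the same adjusted p. An unadjusted p under 0.05 was found for 4 (Dck, Dctpp1, Tyms and Tk1). The weakest of these, Dck, ranked 812 by p among the 8343 genes, so at least that many were under the unadjusted threshold. DESeq2 called 1, Tk1, and limma-voom 0. The log2 fold changes were positive for 6 and negative for 3, with a median of 0.80 beside 0.03 over all genes. All 9 overlapped between the groups, and the rule used this contrast too.

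**Figure D4:**
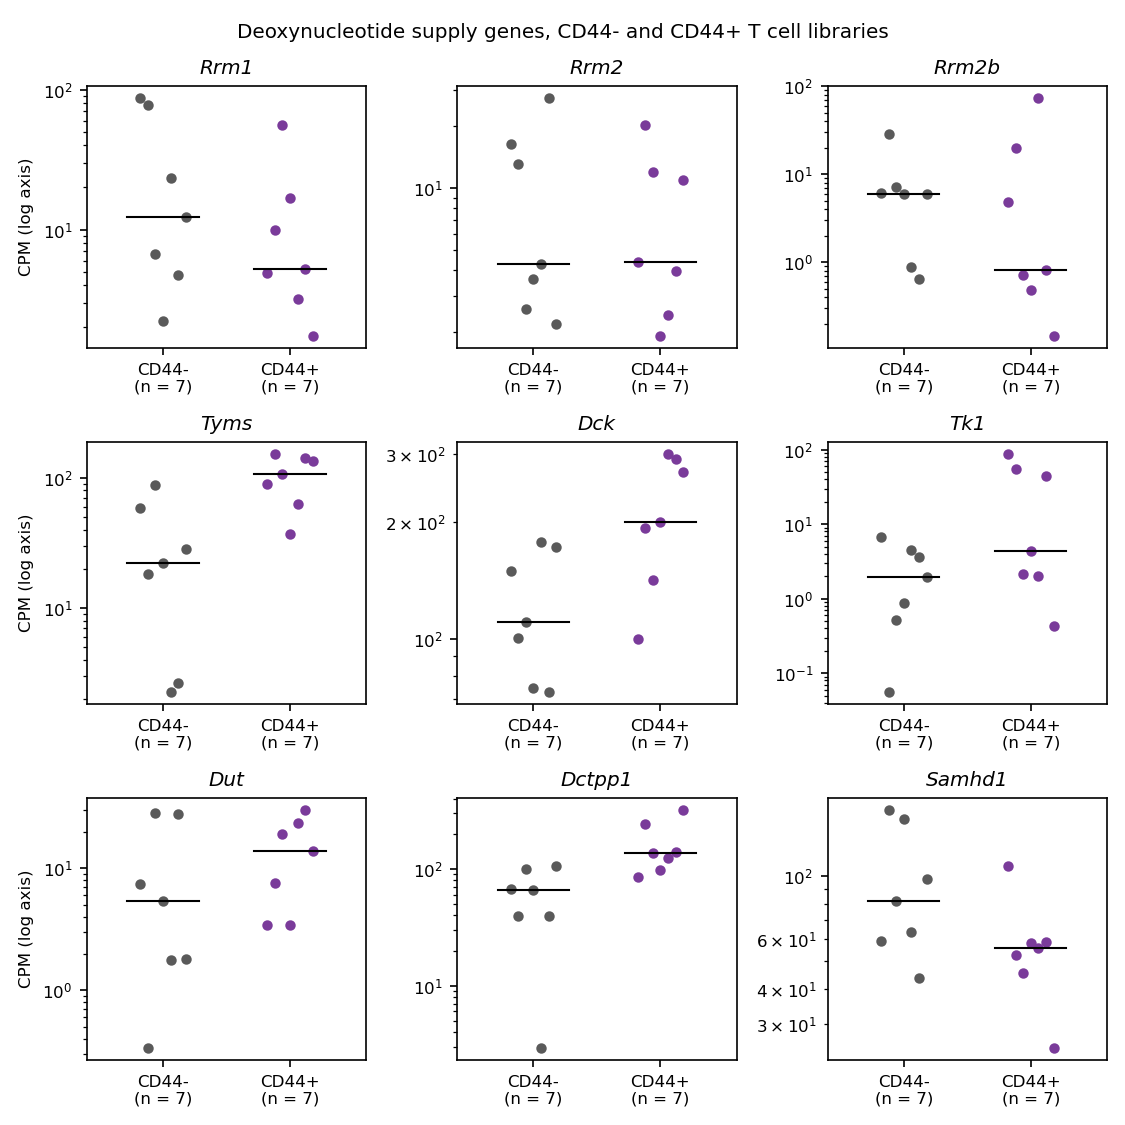
Level of each gene in the 14 CD44+ and CD44- T cell libraries, in CPM on a log axis, 1 point per library with the median of each group (n = 7) as a bar. Dck and Dctpp1 sit higher in CD44+ libraries with overlap, and Rrm1, Rrm2b, Tk1 and Dut scatter over a wide range within each group.

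Dck ran from 72.8 to 177 CPM in CD44- libraries (median 111) and from 100.1 to 300 CPM in CD44+ libraries (median 200). In CD44+ libraries 6 of 7 were above the CD44- mean, and CD44+ replicate 1 was the exception. The means were 122 ± 44.0 and 214 ± 76.6 CPM (SD, n = 7 each), a log2 fold change of 0.80 ± 0.35. Dctpp1 ran from 2.91 to 105 CPM (median 65.4) and from 86.2 to 322 CPM (median 138), a log2 fold change of 1.45 ± 0.55. All 7 CD44+ libraries were above its CD44- mean, and CD44- replicates 4 and 8 made up the overlap with CD44+ replicates 1 and 5. Tyms ran from 2.28 to 87.7 CPM (median 22.1) and from 36.9 to 152 CPM (median 106), a log2 fold change of 1.71 ± 0.68. The Tyms value was 0.90 with total gene reads and 2.45 with limma-voom, and introns held a median of 64.0% of its gene reads in CD44- and 13.2% in CD44+ libraries.

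Tk1 was sparse, from 0.0557 to 6.62 CPM in CD44- libraries (median 1.93, 1 to 69 reads) and from 0.432 to 87.5 CPM in CD44+ libraries (median 4.30). Its log2 fold change of 3.43 ± 1.16 rests on CD44+ replicates 1, 2 and 7, at 87.5, 55.6 and 44.6 CPM, with the other 4 at 0.432 to 4.30 CPM, and was 2.80 without replicate 1. Reads that matched several places made up 79.0% of its CD44- and 74.7% of its CD44+ exon reads. Samhd1 ran from 43.8 to 172 CPM (median 81.6) and from 24.6 to 109 CPM (median 55.8), a log2 fold change of -0.74 ± 0.46. The CD44- group reached higher, and the overlap rested largely on CD44+ replicate 1 at 109 CPM, with the next CD44+ library at 58.7 CPM. Among CD44- libraries only replicate 7 (43.8 CPM) lay below that, and the next was replicate 1 at 59.0 CPM. Introns held a median of 18.0% of Samhd1 gene reads in CD44- and 51.6% in CD44+ libraries.

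The reductase genes had no steady level in this pair. Rrm1 ran from 2.20 to 87.4 CPM in CD44- libraries (median 12.3, 20 to 1401 reads) and from 1.73 to 55.9 CPM in CD44+ libraries (median 5.24), a log2 fold change of -1.14 ± 0.93 that was -2.13 without CD44+ replicate 4 and -0.64 without CD44- replicate 1. Rrm2 ran from 2.17 to 27.5 CPM (median 4.30) and from 1.91 to 20.4 CPM (median 4.38), a log2 fold change of -0.31 ± 0.79. Rrm2b ran from 0.642 to 28.7 CPM (median 5.95) and from 0.144 to 73.9 CPM (median 0.815, 1 to 584 reads), a log2 fold change of 0.86 ± 1.16. A single library decided the sign of both small subunits: without CD44+ replicate 6 the Rrm2b value was -0.81, and without CD44- replicate 7 the Rrm2 value was 0.19. Dut ran from 0.334 to 28.4 CPM (median 5.40) and from 3.43 to 30.3 CPM (median 13.8), a log2 fold change of 0.47 ± 0.89 (1.31 with limma-voom).

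Read structure differed between the pairs for Dck itself. In the diet pair 10.5% to 15.8% of Dck exon reads crossed an exon junction, and introns took 0% to 0.96% of its gene reads. In the CD44 pair junction reads made up 0.148% to 12.3% and introns 12.5% to 60.4%. CD44- replicate 5 had 1 junction read among 675 exon reads, and CD44+ replicate 1 had 13 among 845. Counted by junction reads alone, a measure chosen after the data were seen, the CD44 log2 fold change of Dck was 1.20 ± 0.77. Rrm2b was the extreme case, with a median of 97.1% of its gene reads in introns in CD44+ and 94.5% in CD44- libraries. The part of reads from unspliced RNA or DNA in these levels was not tested.

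**Figure D5:**
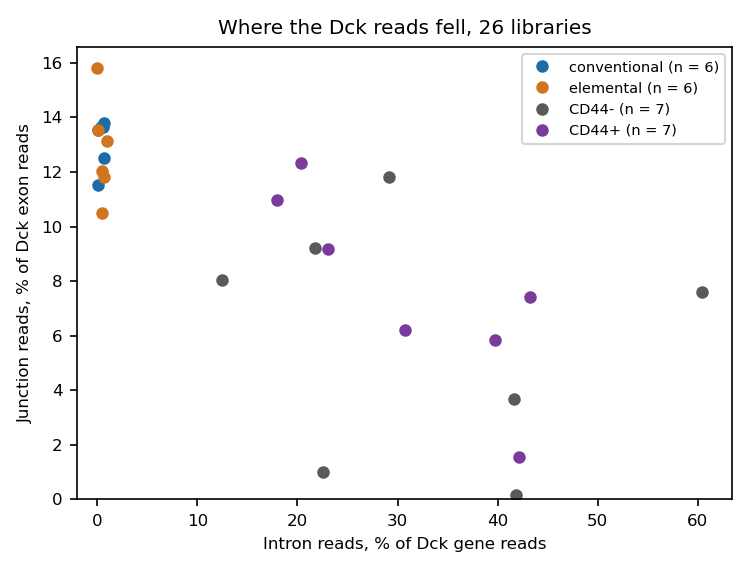
Share of Dck exon reads that crossed an exon junction (vertical axis, percent) against the share of its gene reads in introns (horizontal axis, percent), 1 point per library for all 26, coloured by group. The 12 CD4+ libraries lie together below 1% in introns, and the 14 CD44+ and CD44- libraries spread from 12.5% to 60.4%.

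In the CD44 pair 0 genes were called in the lists of pathway partners, S phase, G1 to S control, p53 targets and interferon response. At an unadjusted p under 0.05 there were 4 of 13 S-phase genes, 2 of 6 folate genes, 1 of 9 phosphorylation partners, 3 of 14 de novo genes, 2 of 5 G1 to S genes, 2 of 4 reductase electron donors and 1 of 10 interferon response genes. There were 0 of 3 breakdown genes, 0 of 3 nucleoside carriers, 0 of 3 nucleotide-cleaning genes and 0 of 8 p53 targets. Of all 8343 tested genes, at least 812 were under this unadjusted threshold. DESeq2 called 2 of the 4 reductase electron donors higher, 1 S-phase gene higher, and 1 gene lower in each of the de novo, breakdown and nucleotide-cleaning lists. With limma-voom 1 de novo gene was called lower and 0 genes in the other lists. Cd44 itself, the sort gene, was at 81.2 ± 30.2 CPM in CD44- and 157 ± 94.5 CPM in CD44+ libraries and was not called (0.95 ± 0.40, edgeR adjusted p = 0.303). Plasma cell markers rose in 2 of 6, with sums of 399 to 3136 CPM in CD44- and 3841 to 8102 CPM in CD44+ libraries, among them Jchain, which links antibody units (2.32 ± 0.46, adjusted p = 0.0193), and Mzb1 (2.58 ± 0.48, adjusted p = 0.0122). Germinal centre B cell markers were called in 0 of 5 (1 unadjusted), with sums of 8.99 to 212 and 129 to 514 CPM and Gcnt3 at 0 in all 14 libraries. B cell markers were called in 0 of 9 (4 unadjusted), with sums of 307 to 1393 and 669 to 2339 CPM, and 1 of 12 myeloid markers rose, Tyrobp, with sums of 706 to 1482 and 1161 to 1827 CPM. The part of these cells in the Dck, Dctpp1, Tyms and Tk1 levels was not tested.

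Other genes whose levels followed these genes from library to library were ranked by Pearson's r of log2 CPM deviations from the group mean over 26 libraries, among genes of at least 10 CPM in each group. For Dck the nearest were Ift27 (0.81), Cdk2 (0.79) and Rrn3 (0.78) of 4189 genes. For Samhd1 they were Pak2 (0.81), Dtx3l (0.79) and Eif4b (0.79), and for Rrm2 they were Isca1 (0.78), Parvg (0.76) and Hipk1 (0.76). Rrm2 itself was under the 10 CPM limit in the CD44 pair, with means of 8.00 CPM in CD44+ and 9.95 CPM in CD44- libraries. The points share library, kit and depth, and the wider scatter of the 14 low-input libraries weighs most in them.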

How the data were processed

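Per the file headers, the authors deposited for each of 26 libraries a table of 25814 genes with whole read counts, split into exon, intron and junction reads, with and without reads that match several places. Per the submitters' processing notes the reads were placed on GRCm38, and the sources used here do not name the aligner or counter. Tests were run on total exon reads, and the TPM and RPKM columns were not used. The 3759 genes with an exon length of 0 were left out.

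Each pair of groups was fitted on its own with edgeR 4.0.16 in R 4.3.3 (filterByExpr, TMM, robust quasi-likelihood test, two-sided, Benjamini-Hochberg over all genes, called at an adjusted p under 0.05). CPM is relative to the TMM-scaled library, RPKM is CPM per kilobase of exon length, and log2 CPM used a prior count of 2. The SE of a log2 fold change is the fold change over the root of the F statistic. The script was tested on simulated data. DESeq2 1.42.0 and limma 3.58.1 served as alternatives, with Python 3.11.15, pandas 2.3.3, numpy 2.4.6 and matplotlib 3.10.9 for tables and figures. Further alternatives were scaling, low-count filter, read class, replicate block and leaving out libraries.

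The 9 genes and the 21 lists were chosen with earlier results of these data known. Named from other lists were up to 3 called genes with the largest change and a mean log2 CPM of at least 2, plus 10 genes fixed by name, of which 1 is not reported here (the others are Dguok, Tk2, Dtymk, Dctd, Shmt1, Slc29a1, Mcm6, Pcna, Cdkn1a). Pnp and Ppat were not matched by symbol. Counts of libraries of a group differed by a chi-square per degree of freedom of 11.9 or more in 72 pairs, so none was counted as a duplicate.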

Additional observations from a re-analysis of the deposited data

Results flagged for a closer look

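In 36 sets of values, 9 genes in each of 4 groups, the highest or lowest library was compared with its nearest neighbour by Dixon's test at the 95% level, which by chance marks about 1 set in 20. All 4 sets marked were in the CD44 pair. Rrm1 was at 55.9 CPM in CD44+ replicate 4, with the next library at 16.8 CPM. Rrm2b was at 73.9 CPM in CD44+ replicate 6, with the next at 19.8 CPM, and at 28.7 CPM in CD44- replicate 2, with the next at 7.11 CPM. Samhd1 was at 109 CPM in CD44+ replicate 1, with the next at 58.7 CPM. No library of the diet pair was marked for any of the 9 genes.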

How the results depend on the processing

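In the diet pair, 2081 genes and 5 of the 9 were called. Leaving out 1 library gave 1299 (without conventional replicate 4; 1316 without elemental replicate 4) to 3865 genes (without conventional replicate 6), and 3 to 5 of the 9. With conventional 6 and elemental 1 both left out it was 3379 genes and 3 of the 9, with Dctpp1 at 0.023 against -0.11. Junction reads, chosen after the data were seen, gave 949 genes and 3 of the 9. Dck stayed between -0.78 and -0.86, Rrm1 between -0.86 and -0.98 and Rrm2 between -1.28 and -1.56, all called. In the CD44 pair, 64 genes and 0 of the 9 were called. DESeq2 gave 815 genes and 1 of the 9, Tk1 (adjusted p = 0.0169), total gene reads gave 101 genes, and leaving out 1 library gave 36 (without CD44+ replicate 5 or 7; 37 without CD44+ replicate 6, 41 without CD44- replicate 4) to 87 genes and 0 of the 9. Tk1 was too low to be tested there by unique exon or junction reads. Rrm2b changed sign with limma-voom (-0.87) and total gene reads (-0.60), and without 1 library it ran from -0.81 (CD44+ replicate 6 left out) to 1.65. Rrm2 ran from -0.74 to 0.19 (CD44- replicate 7 left out) in the same way. The causes of these changes were not tested.

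Replicate numbers are shared between groups, and both CD44 groups carry the numbers 1, 2, 4, 5, 6, 7 and 8, with the same gap. The labels do not say that the numbers pair samples. Deviations of same-numbered libraries correlated at -0.14 to 0.27 in the diet pair (2 of 6 above 0.1) and at -0.04 to 0.12 in the CD44 pair (1 of 7). The numbers were not taken as pairs, but these correlations cannot exclude pairing, because scatter between libraries can hide it. With the replicate block 2033 diet genes and 5 of the 9 were called, and 37 CD44 genes and 0 of the 9, with Rrm2b at -1.27. Of the conventional and CD44- libraries, only conventional replicates 2 and 5 and CD44- replicate 2 correlated best with their own number in the other group. In the CD44 pair a gene at 1 to 20 reads in some libraries gives no firm level.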
